A study of Mus musculus with 9 samples.

Results

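The genes described here are the 10 that make up the core of the MHC class II pathway in the mouse, chosen by name and each found as a single row among the 45535 rows of the table that carry a gene symbol. They are the chains of the classical class II molecules (H2-Aa, H2-Ab1 and H2-Eb1), the chains of the peptide exchange factor H2-M (H2-DMa, H2-DMb1 and H2-DMb2), the chains of its inhibitor H2-O (H2-Oa and H2-Ob), the invariant chain (Cd74) and the transcriptional coactivator Ciita. RNA was sequenced from lung dendritic cells of C57/BL6j mice that had received bleomycin, a drug that injures the lung and is used to model fibrosis, for 7 days. The cells were released with collagenase, selected with magnetic beads for CD103 (the integrin encoded by Itgae), and lysed either at once (before culture, 5 samples) or after 18 h in RPMI medium with serum and antibiotics (after culture, 4 samples). All samples carry the bleomycin treatment, and no untreated lung or other culture time was analysed here. The labels do not say how many mice a sample holds, whether samples of a group come from different mice, or how pure the selected cells were, so p-values measure the spread between these samples, which may be technical.

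Class II molecules present peptides from endocytosed proteins to CD4 T cells. An alpha and a beta chain assemble with the invariant chain, which blocks the peptide groove and carries the complex to endosomes, where proteases degrade it to a short remnant. H2-M then exchanges that remnant for peptides, and H2-O restrains H2-M. Transcription of class II genes depends largely on CIITA, which does not bind DNA itself but docks on proteins that occupy a shared promoter module. These are RFX on the X box, CREB on the X2 box and NF-Y on the Y box. Dendritic cells express the set constitutively, and in dendritic cells that mature, synthesis of class II is known to stop while molecules already on the surface are retained.

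The promoter module is shown first because class II genes are known to share it. RefSeq promoter sequences (GRCm38.p6, 250 bases before to 50 after a listed start) were matched for 7 of the 10 genes, which leaves out H2-Ab1, Cd74 and Ciita. The X box core AGNAAC, searched on both strands, was present in 48.1% of all 32817 promoters of that length, and CCAAT, the core of the Y box, in 37.4%. AGNAAC followed on the same strand by ATTGG (the Y box core read on the other strand) beginning 25 to 45 bases later was present in 1.15% of all promoters, and in those of 4 of the 7 genes, namely H2-Eb1, H2-Oa, H2-Ob and H2-DMb1. In the promoters of H2-Aa and H2-DMb2 the string at the same place was GGCAAC and ATTAAC. A looser search that was chosen after the sequences were seen (any AAC-ending string of that length, followed at the same distances by GATTGG) was met by 6 of the 7 genes and by 3.77% of all promoters. For H2-DMa, whose listed starts gave 2 promoters, neither pair was found at these distances. Singly, AGNAAC occurred in promoters of 5 of the 7 genes and CCAAT in those of all 7, H2-DMa among them. A match describes letters in a window and not a bound site.

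The stretches that hold the pair lie on chromosome 17, with both cores upstream of the RefSeq start used for each promoter. By the GENCODE M21 gene limits, those of H2-Aa, H2-Eb1 and H2-Ob lie before the gene, those of H2-Oa and H2-DMb1 span its first base, and that of H2-DMb2 lies inside the gene, whose annotation begins further upstream. They are chr17:34287847-34287931 (minus strand) for H2-Aa, chr17:34305748-34305832 (plus strand) for H2-Eb1 and chr17:34092276-34092360 (plus strand) for H2-Oa. Those of H2-Ob, H2-DMb1 and H2-DMb2 are chr17:34238788-34238872, chr17:34153070-34153154 and chr17:34145099-34145183, all on the plus strand. Each is printed 5′ to 3′ on the strand of its gene, with the string at the X box core and the ATTGG of the Y box in capitals.
H2-Aa: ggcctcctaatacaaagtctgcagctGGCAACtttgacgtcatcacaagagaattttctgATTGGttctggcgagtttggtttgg
H2-Eb1: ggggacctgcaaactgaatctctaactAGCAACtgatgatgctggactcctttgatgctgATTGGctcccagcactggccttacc
H2-Oa: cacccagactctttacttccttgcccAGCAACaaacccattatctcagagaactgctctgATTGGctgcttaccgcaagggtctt
H2-Ob: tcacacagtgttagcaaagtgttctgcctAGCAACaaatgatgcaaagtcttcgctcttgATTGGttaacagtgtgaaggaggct
H2-DMb1: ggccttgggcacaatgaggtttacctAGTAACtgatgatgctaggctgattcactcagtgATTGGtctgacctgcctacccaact
H2-DMb2: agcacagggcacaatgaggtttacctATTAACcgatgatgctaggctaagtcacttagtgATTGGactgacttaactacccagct
In these 6 stretches the start of the ATTGG lies 31 to 34 bases after the start of the string in capitals before it. The sequence between and around the cores differs from gene to gene, apart from H2-DMb1 and H2-DMb2, which read alike over much of the window.

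All 10 genes fell after culture. Each passed a limma adjusted p of 0.05. Their log2 fold changes lay between −4.21 (H2-Ab1) and −1.92 (H2-Ob), around a median of −2.98. Culture changed much of the transcriptome, which sets the background for this count. Of 18202 genes tested, 34.6% fell and 34.2% rose (68.8% in either direction), and the median over all tested genes was 0.01. The groups did not overlap for any of the 10 genes, against 28.6% of tested genes whose groups did not overlap with lower values after culture. The share of all named reads taken by the 10 genes was 2.92, 2.62, 2.41, 2.18 and 2.63% in replicates 1 to 5 before culture and 0.340, 0.338, 0.314 and 0.413% in replicates 1 to 4 after culture. The mean share was thus 2.55 ± 0.277% before and 0.351 ± 0.0426% after (SD, n = 5 and n = 4). In bulk RNA, fewer cells that express a gene and less of its RNA per cell cannot be told apart.

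**Figure D1:**
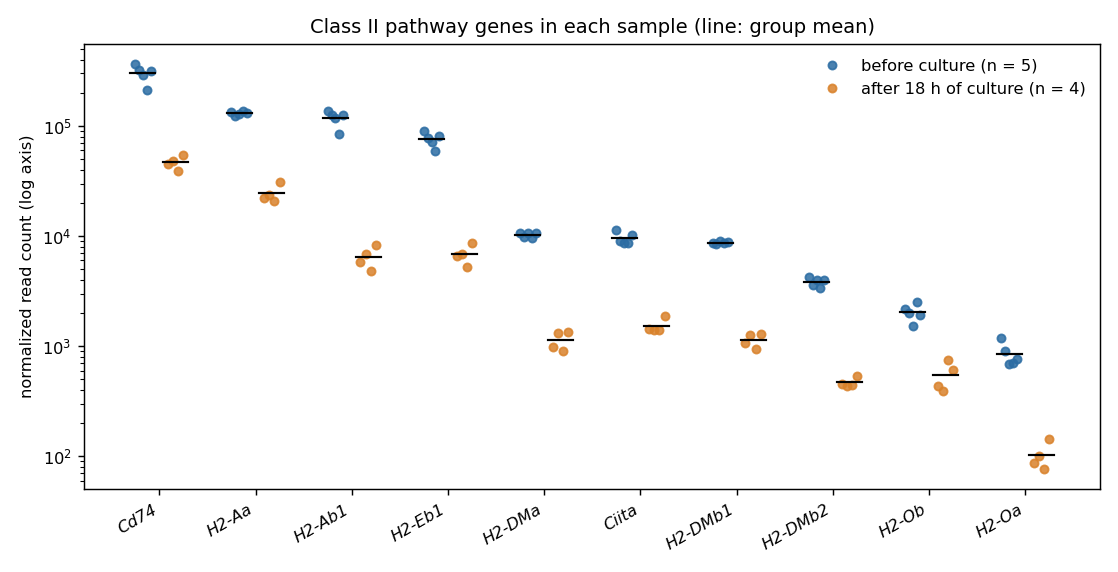
Normalized read counts (log axis) of the 10 class II pathway genes in every sample, with 5 samples before culture in blue, 4 after 18 h of culture in orange and a line at each group mean. For each gene all samples after culture lie below all samples before culture, with Cd74 the most abundant gene on this scale and H2-Oa the least.

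Depth ran from 14.7 to 35.3 M reads in named rows, so counting error is small for all members (at least 76.4 normalized counts in any sample, where 1 read is worth 0.758 to 1.79). Samples of a group correlated at 0.979 to 0.989 over all tested genes, and samples of different groups at 0.871 to 0.897. Transcripts of other cell types were read in both groups, and these are set beside the results further on.

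The classical chains did not fall by equal amounts. H2-Aa, the alpha chain of the I-A molecule, had normalized counts of 134615, 123400, 127498, 136734 and 130292 before culture and of 22012, 23620, 21039 and 30764 after culture. It was 5.36-fold lower after culture by group means (limma log2 fold change −2.44 with SE 0.115, adjusted p = 6.80e-10). H2-Ab1, the beta chain that pairs with it, had 137588, 125259, 118280, 84680 and 125253 before and 5858, 6851, 4828 and 8248 after culture. These means lie 18.3-fold apart (limma log2 fold change −4.21 with SE 0.162, adjusted p = 9.41e-11). The fall of H2-Ab1 was the steepest of the 10 genes, and only 1.01% of all tested genes had a lower log2 fold change. Before culture the counts of the alpha and beta chain were close to each other, except in replicate 4, and after culture every sample held several times more H2-Aa than H2-Ab1.

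That difference was tested within samples on the log2 ratio, where it does not depend on how samples are scaled. Means and SD of ratios are those of the plain ratio. The ratio of H2-Ab1 to H2-Aa was 1.02, 1.02, 0.928, 0.619 and 0.961 before culture and 0.266, 0.290, 0.229 and 0.268 after culture. The groups do not overlap, and the mean ratio fell from 0.909 ± 0.167 to 0.263 ± 0.0251 (SD, n = 5 and n = 4, exact permutation test, p = 0.0159, adjusted over 8 ratios p = 0.0254). H2-Eb1, the beta chain of the I-E molecule, had 89749, 77750, 71761, 59816 and 81339 before and 6642, 6879, 5275 and 8739 after culture, which is 11.1-fold lower (limma log2 fold change −3.48 with SE 0.143, adjusted p = 1.82e-10). Its ratio to H2-Aa fell from 0.584 ± 0.0901 to 0.282 ± 0.0220 (SD, exact permutation test, adjusted p = 0.0254), without overlap. Both beta chains therefore fell further than the alpha chain. Of the H2-Aa transcript 0.63% of 50-base windows also occur in other genes, and none of those of H2-Ab1 and H2-Eb1 do. An antisense gene, Gm20513, overlaps H2-Eb1 and went from 133.7 ± 17.7 to 13.1 ± 7.30 (SD). Whether the counting used strand is not given in the sources used here, so reads of the overlap cannot be assigned to either gene.

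C57/BL6j mice carry the b haplotype, in which the alpha chain gene of I-E is not functional, so H2-Eb1 has no classical partner. The row H2-Ea was close to the detection limit, with 36.9 ± 9.73 normalized counts before and 4.05 ± 2.41 after culture (SD, log2 fold change −3.05, limma adjusted p = 1.90e-05). These are 1 to 7 reads per sample after culture, and the H2-Ea fold change was −1.90 with a pseudocount of 8 and −3.25 with one of 0.5. H2-Eb2, a neighbouring beta chain gene, stayed low and did not pass the test (554 ± 55.2 against 576 ± 151, limma log2 fold change 0.03 with SE 0.146, adjusted p = 0.889).

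Cd74, the invariant chain, was the most abundant member on every scale used. Its normalized counts were 363604, 324098, 293126, 210279 and 316494 before and 45375, 48053, 38644 and 54569 after culture. It was 6.46-fold lower after culture (limma log2 fold change −2.68 with SE 0.162, adjusted p = 7.18e-09). Relative to H2-Aa it moved little. That ratio was 2.32 ± 0.465 before and 1.93 ± 0.143 after culture (SD), the groups overlapped, and the difference did not pass (exact permutation test, adjusted p = 0.272). Without replicate 4 before culture, whose ratio was 1.54 against 2.30 to 2.70 in the other 4, it did pass (exact permutation test, mean log2 difference −0.38, adjusted p = 0.0327). The row of the microRNA Mir5107, which lies inside Cd74 on the same strand, fell with it (316 ± 58.9 against 18.4 ± 3.02 normalized counts, SD, limma adjusted p = 3.45e-10), and its reads may be those of Cd74.

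Ciita, the coactivator of class II genes, had 11237, 9062, 8706, 8590 and 10292 normalized counts before culture and 1421, 1395, 1391 and 1892 after culture. It fell 6.28-fold by group means (limma log2 fold change −2.65 with SE 0.109, adjusted p = 1.82e-10). The replicates after culture lay close together except replicate 4, which was highest for 8 other members as well. The ratio of H2-Aa to Ciita was 13.8 ± 1.57 before and 15.95 ± 0.808 after culture (SD), with overlap, and did not pass (exact permutation test, p = 0.0476, adjusted p = 0.0635). Without replicate 4 before culture it did (mean log2 difference 0.27, exact permutation test, adjusted p = 0.0327). Ciita can be transcribed from several promoters that serve different cell types, and gene-level counts do not separate them.

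The chains of H2-M fell together. H2-DMa, the alpha chain, had 10715, 9897, 10574, 9647 and 10591 before and 987, 1317, 907 and 1335 after culture (9.05-fold lower, limma log2 fold change −3.20 with SE 0.111, adjusted p = 3.66e-11). H2-DMb1, a beta chain, ran from 8390 to 9017 before and from 934 to 1292 after culture, a 7.62-fold difference of means (limma log2 fold change −2.94 with SE 0.0925, adjusted p = 1.68e-11). H2-DMb2, the other beta chain gene, ran from 3384 to 4226 before and from 438 to 540 after culture, 8.17-fold (limma log2 fold change −3.03 with SE 0.0882, adjusted p = 9.48e-12). The beta chain counts are uncertain against each other, since 27.2% of the 50-base windows of the longest H2-DMb1 transcript and 30.9% of those of H2-DMb2 also occur elsewhere, mostly in the other of this pair. For each of the 3 genes the groups lay far apart. The alpha chain fell slightly further than H2-DMb1: the ratio of H2-DMb1 to H2-DMa rose from 0.849 ± 0.0363 to 1.01 ± 0.0585 (SD, no overlap, exact permutation test, adjusted p = 0.0254). H2-Aa fell less than H2-DMa, so that their ratio rose from 12.7 ± 0.839 to 21.6 ± 2.49 (SD, no overlap, exact permutation test, adjusted p = 0.0254).

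The chains of H2-O went apart. H2-Oa, the alpha chain, had 1185, 897, 696, 704 and 771 before and 87.4, 101.6, 76.4 and 143.7 after culture, which is 8.32-fold lower (limma log2 fold change −3.05 with SE 0.191, adjusted p = 9.78e-09). H2-Ob, the beta chain, had 2158, 2012, 1539, 2518 and 1905 before and 437, 390, 745 and 607 after culture. Its 3.72-fold difference was the smallest of the 10 genes (limma log2 fold change −1.92 with SE 0.179, adjusted p = 5.27e-07). The ratio of H2-Ob to H2-Oa was 1.82, 2.24, 2.21, 3.58 and 2.47 before and 5.00, 3.84, 9.75 and 4.22 after culture, with no overlap (exact permutation test, adjusted p = 0.0254). Replicate 3 after culture was the highest, and the difference in mean log2 ratio of 1.13 was 0.84 without it. The ratio of H2-Oa to H2-DMa was 0.0826 ± 0.0182 before and 0.0894 ± 0.0130 after culture, with overlap, and the difference did not pass (SD, exact permutation test, adjusted p = 0.429). Of the H2-Oa windows 17.2% also occur in other genes, most often in its antisense neighbour BC051537. That gene had 13.1 ± 7.50 normalized counts before and 10.1 ± 8.69 after culture (SD).

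**Figure D2:**
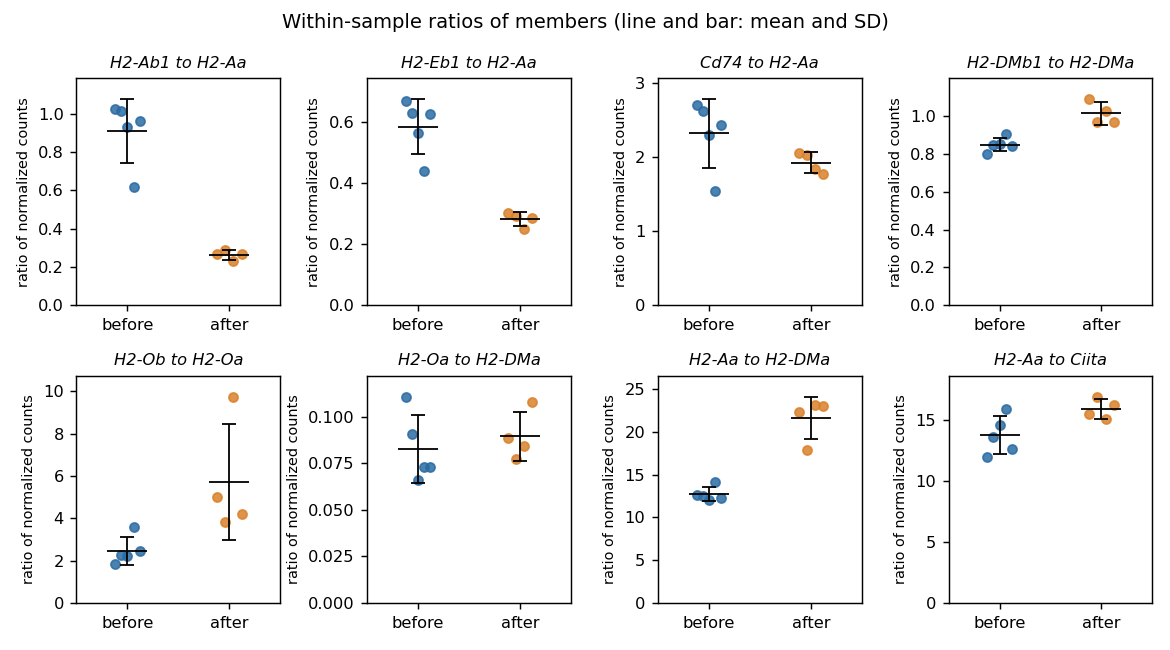
Within-sample ratios of normalized counts for 8 pairs of members, each on an axis from 0, with points for the 5 samples before and 4 after culture and the mean with its SD. The ratios of H2-Ab1 and H2-Eb1 to H2-Aa fell, those of H2-DMb1 to H2-DMa, H2-Ob to H2-Oa and H2-Aa to H2-DMa rose, and the other 3 overlap between the groups.

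Levels of different genes were compared per kilobase of exon (GENCODE M21, GRCm38, the build named in the submitters' processing notes). Before culture Cd74 led with 179583 ± 33933 normalized counts per kilobase (SD, n = 5). H2-Ab1 (46033 ± 7786), H2-Eb1 (39137 ± 5754) and H2-Aa (34362 ± 1413) followed, and neighbours in this order had overlapping ranges. Within samples H2-Ab1 was above H2-Eb1 in 5 of 5, and H2-Eb1 above H2-Aa in 4 of 5. Then came H2-DMb1 (5190 ± 149), H2-DMa (2983 ± 139), H2-DMb2 (2195 ± 192), Ciita (1004 ± 120), H2-Oa (605 ± 145) and H2-Ob (377 ± 66.4), with no overlap between neighbours. After culture Cd74 was again highest, at 27790 ± 3927 per kilobase (SD, n = 4), but H2-Aa now came next at 6414 ± 1159, with no overlap with H2-Eb1 at 3541 ± 733. H2-Ab1 had gone from the highest of the classical chains to the lowest, at 2510 ± 568, although its range overlapped that of H2-Eb1. Within samples H2-Eb1 was above H2-Ab1 in 4 of 4, the opposite order from before culture. H2-DMb1 (681 ± 102), H2-DMa (330 ± 64.2), H2-DMb2 (269 ± 27.0) and Ciita (160 ± 25.7) kept their places, with overlap between H2-DMa and H2-DMb2. H2-Ob (101 ± 30.3) and H2-Oa (72.7 ± 20.9) exchanged theirs, with overlapping ranges. Exon lengths are those of all annotated transcripts together and may not be the ones expressed.

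Of the 10 genes, 8 lie on chromosome 17 between H2-Oa (chr17:34092340-34095234) and H2-Eb1 (chr17:34305867-34316674, GRCm38), interspersed with genes of other function. Of the 5 coding neighbours listed, 1 fell, 1 rose and 3 did not pass, where 34.6% of all tested genes fell and 34.2% rose. The bromodomain gene Brd2 fell 1.55-fold (16323 ± 990 against 10545 ± 253, SD, log2 fold change −0.63, limma adjusted p = 3.53e-06). Psmb8, a subunit of the immunoproteasome, rose 1.25-fold (2752 ± 270 against 3435 ± 235, log2 fold change 0.32, limma adjusted p = 0.00418). Psmb9, another subunit (2151 ± 152 against 2217 ± 164, limma adjusted p = 0.633), and the peptide transporter genes Tap1 (6753 ± 567 against 6494 ± 361, limma adjusted p = 0.552) and Tap2 (4839 ± 328 against 5177 ± 294, limma adjusted p = 0.243) did not pass. Tap2 did with upper quartile scaling (log2 fold change 0.21, limma adjusted p = 0.0225). The members on either side of this block of class I processing genes were all several-fold lower. H2-Eb2, which is no member and lies beyond H2-Eb1, did not pass (log2 fold change 0.03, limma adjusted p = 0.889). Between Tap2 and H2-Ob, the noncoding gene Gm15821 rose from 27.2 ± 5.90 to 178 ± 68.1 normalized counts (SD, log2 fold change 2.63, limma adjusted p = 6.27e-07), a gene named here after its values were seen.

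**Figure D3:**
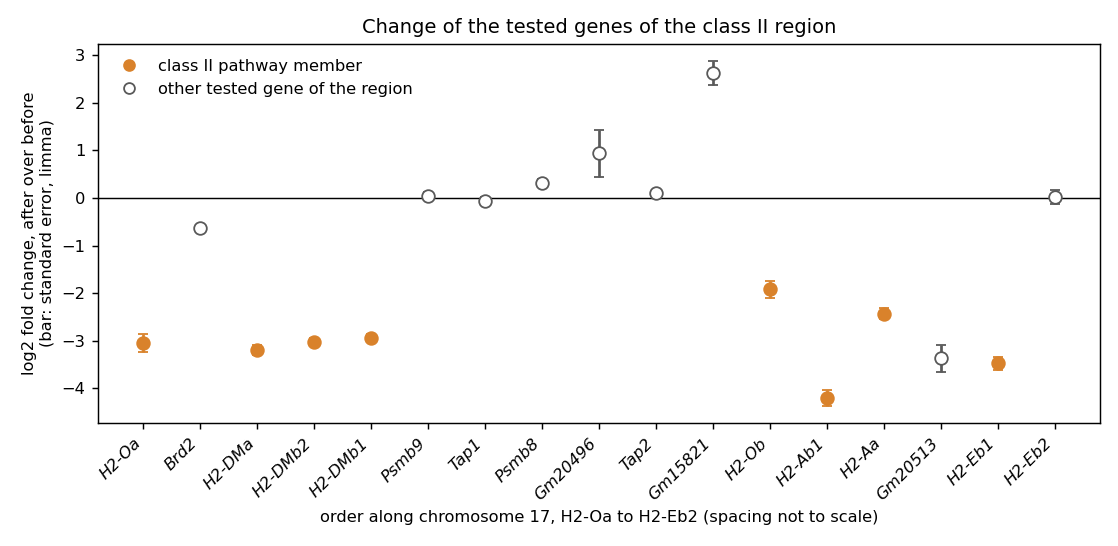
Log2 fold change (after over before culture, bars are standard errors from limma) of the tested genes from H2-Oa to H2-Eb2 in their order along chromosome 17, with the 8 class II pathway members in orange and other genes as open circles. The members lie between −4.21 and −1.92, while Psmb9, Tap1, Psmb8 and Tap2 between them lie from −0.05 to 0.32.

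The proteins that bind the shared promoter module did not fall as a set. Of 7 genes, 1 fell, 4 rose and 2 did not pass, with a median log2 fold change of 0.31. Among all tested genes 34.6% fell and 34.2% rose. Rfxap, a subunit of RFX, fell from 308 ± 45.9 to 151 ± 37.3 (SD, log2 fold change −1.04, limma adjusted p = 7.33e-05), without overlap. Rfx5, the DNA-binding subunit, rose from 613 ± 65.6 to 760 ± 67.5 with overlapping groups (log2 fold change 0.31, limma adjusted p = 0.0129), and Rfxank, the other subunit, did not pass (363 ± 37.4 against 395 ± 47.3, limma adjusted p = 0.357). Creb1, which binds the X2 box, rose 2.13-fold (2303 ± 101 against 4912 ± 584, log2 fold change 1.09, limma adjusted p = 7.28e-08). Of the NF-Y subunits, Nfya rose from 3332 ± 51.1 to 5612 ± 93.7 (log2 fold change 0.75, limma adjusted p = 8.12e-08), Nfyb was 350 ± 50.8 against 430.5 ± 41.7 (log2 fold change 0.31, limma adjusted p = 0.0354) and Nfyc 1005 ± 34.9 against 933 ± 35.8 (limma adjusted p = 0.181). The call of Nfyb was lost when replicate 1, 2 or 5 before culture or replicate 3 or 4 after culture was left out (limma adjusted p from 0.0510 to 0.0939).

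Genes that induce or repress Ciita moved in both directions, 5 lower, 7 higher and 2 not passing of 14, with a median of 0.16. Of all tested genes 34.6% fell and 34.2% rose, so calls in both directions are no trait of this list. Ifng, the cytokine interferon gamma that induces Ciita in many cell types, fell from 137 ± 41.1 to 11.9 ± 6.24 (log2 fold change −3.49, limma adjusted p = 2.85e-07), and Ifngr1, its ligand-binding receptor chain, from 10322 ± 630 to 5586 ± 701 (log2 fold change −0.89, limma adjusted p = 9.82e-07). Irf8 and Irf4, factors of the dendritic cell lineage, fell 2.18-fold (18457 ± 1783 against 8465 ± 404) and 1.98-fold (3296 ± 329 against 1662 ± 117), with limma adjusted p of 6.12e-08 and 2.23e-07. The kinase gene Jak2 rose 1.70-fold (11097 ± 505 against 18840 ± 1614, limma adjusted p = 1.40e-06). Prdm1, which encodes the repressor Blimp-1, rose from 1027 ± 43.3 to 1410 ± 158 (log2 fold change 0.45, limma adjusted p = 3.17e-04) and Ifngr2, the second receptor chain, from 3008 ± 226 to 4052 ± 329 (limma adjusted p = 3.12e-04).

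Endosomal processing genes went mostly the other way from the members, against a background of 34.2% higher and 34.6% lower among all tested genes. Of 10 genes, 6 rose, 2 fell and 2 did not pass, with a median of 0.76. Of the 2, the protease gene Lgmn lay at the threshold (log2 fold change 0.53, limma adjusted p = 0.0520) and was called higher in 10 of the alternatives, edgeR and DESeq2 included. Ctsl rose 5.02-fold (2320 ± 541 against 11654 ± 6076, SD, limma adjusted p = 1.47e-05), Ctsb 2.81-fold (limma adjusted p = 1.90e-05) and Ctsd 2.40-fold (limma adjusted p = 1.20e-04), all lysosomal cathepsins. Ctsl, Ctsb and Ctsd were lowest in replicate 4 before and replicate 3 after culture, as were the macrophage genes C1qa and Csf1r. The part of macrophages in the rise of these cathepsins was not tested. Sppl2a, the protease that removes the membrane remnant of the invariant chain, rose from 4705 ± 269 to 7892 ± 700 (log2 fold change 0.74, limma adjusted p = 1.52e-06). Its highest value before culture was in replicate 4. Cst3, the cysteine protease inhibitor cystatin C, fell 2.14-fold (95674 ± 6938 against 44666 ± 1990, limma adjusted p = 2.56e-07), and Ifi30, the thiol reductase of the endosome, 1.40-fold with overlapping groups (17827 ± 3099 against 12737 ± 1403, limma adjusted p = 0.00580).

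Genes of class II surface turnover were split as well. Marchf1, the ubiquitin ligase that drives removal of class II from the surface of dendritic cells, was 2823 ± 177 before and 2213 ± 416 after culture (SD, log2 fold change −0.37, limma adjusted p = 0.00918), with overlap. Marchf8, a related ligase, rose 2.07-fold (553 ± 71.0 against 1142 ± 237, limma adjusted p = 1.52e-05). Cd83, which opposes Marchf1, fell 1.49-fold (14236 ± 731 against 9537 ± 875, log2 fold change −0.58, limma adjusted p = 2.20e-05).

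The class I pathway, which presents peptides from inside the cell to CD8 T cells, was the closest comparison. Of its 17 genes 10 rose, 0 fell and 7 did not pass, at the same threshold at which all 10 class II genes fell. Its median was 0.32 against −2.98. Over all tested genes 34.2% rose and 34.6% fell. The ranges of log2 fold change did not touch: −0.16 to 1.57 for class I and −4.21 to −1.92 for class II. Psme2, a proteasome activator subunit, rose 2.97-fold (2233 ± 174 against 6641 ± 419, SD, limma adjusted p = 8.94e-10), and Tapbpl, a peptide editor, 1.98-fold (1082 ± 96.2 against 2148 ± 176, limma adjusted p = 2.64e-07). B2m, the light chain of class I, rose 1.95-fold (45492 ± 2850 against 88512 ± 6045, limma adjusted p = 8.43e-07). Nlrc5, the relative of Ciita that controls class I genes, rose from 4908 ± 366 to 8685 ± 994 (log2 fold change 0.82, limma adjusted p = 2.24e-06), where Ciita fell by 2.65 on that scale. The 1 call of these 10 that depended on single samples was Psme1 (limma adjusted p = 0.0433), whose groups overlapped and which was lost on leaving out replicate 2, 3, 4 or 5 before culture or replicate 1, 2 or 4 after culture (limma adjusted p from 0.0590 to 0.123). H2-D1, a class I heavy chain that did not pass (28762.5 ± 4217 against 25615 ± 2594), was called lower without replicate 4 before culture (log2 fold change −0.26, limma adjusted p = 0.0174) and with sample weights (−0.22, limma adjusted p = 0.0469).

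**Figure D4:**
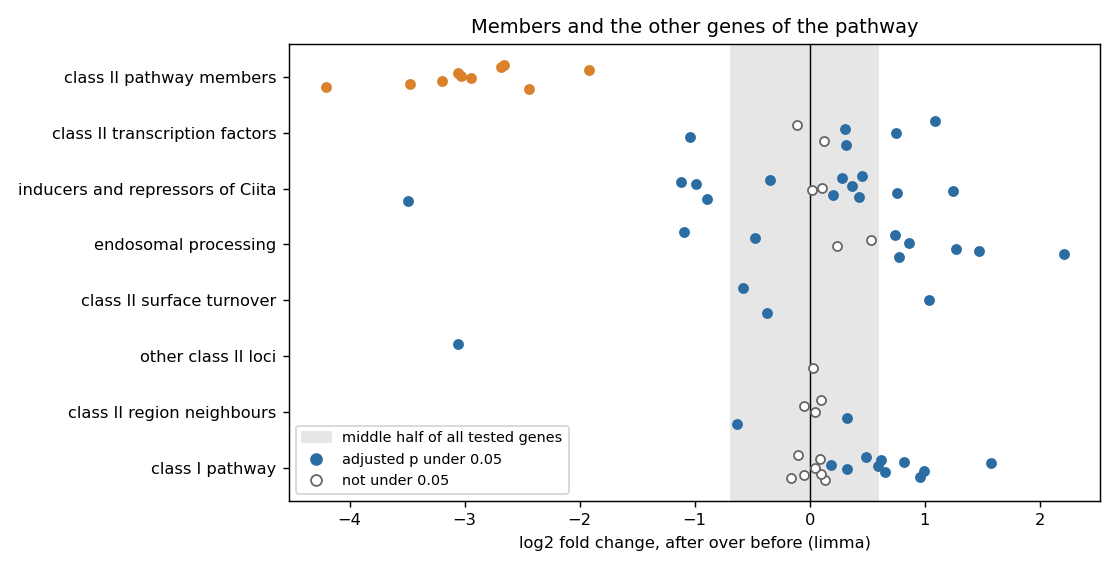
Log2 fold change (after over before culture, limma) of the 10 members in orange and of the other genes of the pathway by list in blue, with genes that did not reach an adjusted p of 0.05 as open circles and the interquartile range of all tested genes in grey (−0.69 to 0.59). All members lie left of the grey band, and the other lists, apart from single genes such as Ifng and H2-Ea, spread around it.

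How the members varied between replicates differed between the groups. Among the 4 samples after culture, 6 of the 45 pairs of members ran against each other (a correlation below 0), all of them with H2-Ob. Among the 5 samples before culture 16 pairs did, and 10 of these did not involve H2-Ob, among them H2-Aa with H2-Ab1, H2-Eb1 and Cd74. After subtraction of group means, the 45 pairs of members correlated with a median r of 0.67 over the 9 samples (range −0.50 to 0.97). The highest was that of H2-Ab1 with H2-Eb1, and H2-Ob had r from −0.50 to 0.21 with the other 9 genes. These correlations are descriptions over few samples that share libraries. Before culture replicate 1 was above its group mean for 9 members. Replicate 4 was below it for Cd74 (by 0.50 on the log2 scale), H2-Ab1 (by 0.46) and H2-Eb1 (by 0.33), but not for H2-Aa (0.07 above) or H2-Ob (0.33 above). After culture replicate 4 was above the mean for all 10 members, and replicate 3 below it for 9, H2-Ob being the exception (0.50 above). Among other genes with a mean of at least 100, those whose deviations were most like the average of the members were Bri3bp (r = 0.96), Mfap3l (0.95), Fech (0.95), Sap130 (0.94) and 2810002D19Rik (0.94), over 9 samples. They were picked as the highest r of all such genes, so a high r was fixed by the choice. Only Bri3bp also fell after culture (log2 fold change −0.98). Mfap3l, Fech and 2810002D19Rik rose (1.86, 0.36 and 0.43), and Sap130 did not pass (limma adjusted p = 0.207).

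**Figure D5:**
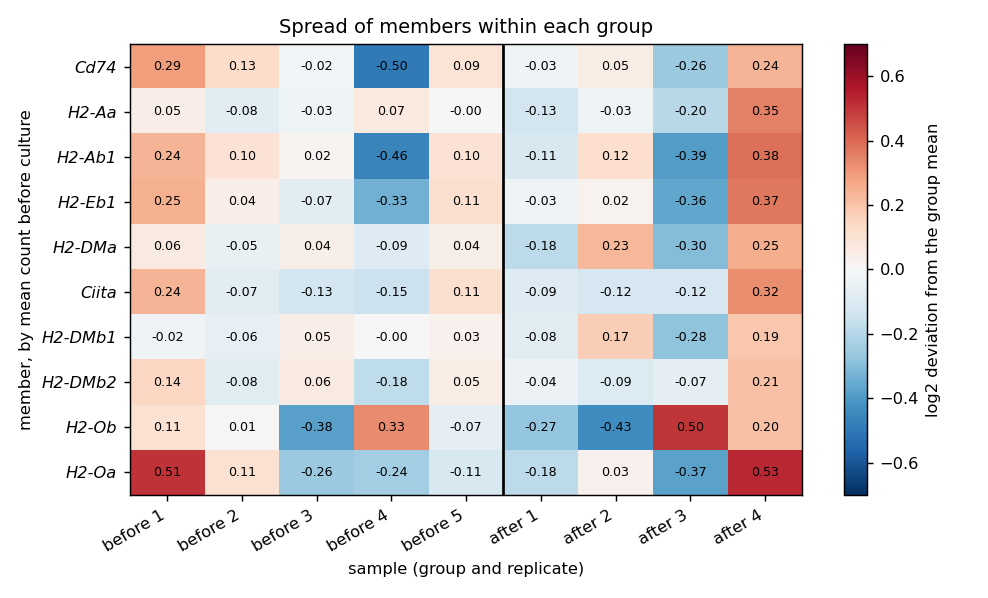
Log2 deviation of each member (rows) from its group mean in each sample (columns, group and replicate), red above and blue below the mean, with a line between the groups. Replicate 4 before and replicate 3 after culture are low for H2-Ab1, H2-Eb1 and Cd74 and high for H2-Ob, and replicate 4 after culture is high throughout.

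The samples that stood low also differed in markers of other cells. C1qa, a complement gene of macrophages, was 2158 in replicate 4 before culture (3904 to 6130 in the other 4) and 800 in replicate 3 after culture (1699 to 3240 in the other 3). Sftpc, a surfactant gene of alveolar type 2 cells, was 16826 in replicate 4 before culture (4296 to 7467 in the others) and 3606 in replicate 3 after culture (819 to 1142 in the others). Markers of type 2 cells did not move alike. Sftpb, Sftpa1, Sftpd and Slc34a2 were also highest in both samples, while Napsa and Abca3 were lowest in both. Cdh1 was lowest in replicate 4 before culture and Etv5 in replicate 3 after culture. The part of these cells in the members' values was not tested. Without replicate 4 before culture the log2 fold changes of the members ran from −4.32 (H2-Ab1) to −1.84 (H2-Ob), and all 10 still passed. Without replicate 3 after culture they ran from −4.08 (H2-Ab1) to −2.09 (H2-Ob), and all 10 passed as well.

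Because macrophages, B cells and alveolar type 2 cells also express class II, their marker lists are summarized, together with those of the dendritic cells. Each list is given by its calls, the range of its summed counts, and its most and least abundant gene before culture. The calls stand beside 34.6% lower and 34.2% higher among all tested genes. All 9 markers of type 1 conventional dendritic cells (cDC1), the subset that CD103 marks in lung, were read, with a summed normalized count of 133708 to 161311 before and 17910 to 19908 after culture. Of them 8 fell, from Wdfy4 (75716 ± 6275 against 4761 ± 811) down in abundance, and the least abundant, Batf3, rose (511 ± 95.4 against 746 ± 96.4, limma adjusted p = 0.00387). All 9 genes of mature dendritic cells rose (summed 40516 to 44058 against 189465 to 210873), from Ccl22 (15899 ± 1083 against 48554 ± 2808) to Il4i1 (14.7 ± 6.22 against 62.4 ± 13.1). Itgae, which encodes CD103 itself, was 18138 ± 1537 before and 1727 ± 335 after culture (SD, limma adjusted p = 4.45e-11). The cells thus carried the markers of the labelled type before culture, and most of these were several-fold lower after it.

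Of 10 B cell markers 2 fell, 1 rose and 7 did not pass, with summed counts of 3734 to 6941 before and 3607 to 5178 after culture. The most abundant was Pax5 (974 ± 273 against 654 ± 120) and the least abundant Cr2 (176 ± 62.4 against 191 ± 51.6). Of 10 monocyte and interstitial macrophage markers 5 fell and 5 did not pass (summed 33302 to 70477 against 19238 to 45787), from Cd14 (15958 ± 3711 against 1370 ± 673) to Fcgr1 (634 ± 206 against 795 ± 424) in order of their level before culture. Csf1r, the most abundant of them after culture, did not pass (11801 ± 2414 against 14883 ± 3908, limma adjusted p = 0.153). The sums of both lists overlapped between groups, as did those of the type 2 dendritic cell list given next. Those of the other marker lists did not overlap.

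Of 8 alveolar macrophage markers 6 fell and 1 rose (summed 27494 to 37083 against 8725 to 12392), from Chil3 (17158 ± 3159 against 7818 ± 1149) to Krt79 (116 ± 54.6 against 25.03 ± 26.7). All 9 alveolar type 2 markers fell (29780 to 49127 against 7510 to 11162), from Napsa (7835 ± 548 against 1789 ± 181) to Sftpd (316 ± 106 against 44.8 ± 15.0). All 8 of endothelium fell as well (24367 to 34834 against 3264 to 4304), from Vwf (9468 ± 1427 against 1282 ± 174) to Ramp2 (1220 ± 213 against 21.7 ± 7.13). Of 7 markers of type 2 conventional dendritic cells 4 fell and 2 rose (27058 to 34852 against 16812 to 30190), with Sirpa the most abundant (14134 ± 1937 against 18100 ± 4091) and Clec4a4 the least (7.76 ± 4.68 against 52.1 ± 23.4). Of 7 markers of plasmacytoid dendritic cells 3 fell (6470 to 7292 against 3286 to 5683), among them the most abundant, Tcf4 (3295 ± 259 against 1606 ± 187), and the least, Cox6a2 (19.4 ± 10.9 against 3.36 ± 2.38). No listed marker was at 0 in every sample of a group. The part of any of these cell types in the fall of the members was not tested.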

How the data were processed

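RNA-seq was done on CD103-selected lung cells, 5 samples before and 4 after 18 h of culture. The deposited values are a signal per gene, read counts divided by a size factor per sample. The submitters' processing notes name DESeq2 and GRCm38. The aligner, counter, annotation, filters and strandedness are not given in the sources used here. Every value is a whole multiple of what 1 read is worth in its sample (100% of values within 1e-06), so depth was recovered (14.7 to 35.3 M reads in named rows). The 3782 rows without a gene name (3.87 to 10.9% of reads) were left out.

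Values as log2(value + 1) were tested with limma 3.58.1 (R 4.3.3, mean-variance trend, group only, two-sided) over 18202 named genes with a mean of at least 10, with Benjamini-Hochberg adjustment over all of them and a threshold of 0.05. Fold changes on this scale understate those of low genes. Ratios of members were tested within samples by two-sided exact permutation (126 splits, smallest p 0.0159), adjusted over 8 ratios. The tested statistic was the difference between groups in mean log2 ratio, with 1 added to each value. On simulated counts (dispersion 0.05) the limma step recovered 170 of 200 changed genes among 18195, and 7.61% of its calls were false. In these data 68.8% of tested genes were called, a far larger part than was changed in the simulation. The simulated dispersion was also the same for every gene, so these rates need not hold here. Alternatives were other pseudocounts, filters and scalings, sample weights, edgeR 4.0.16 and DESeq2 1.42.0 on the recovered reads, a replicate block, and leaving out each sample. Exon lengths and positions are from GENCODE M21 and promoters from RefSeq, both GRCm38.

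Genes named in the text are all members, all genes of the 4 shorter pathway lists, up to 4 genes a direction by adjusted p of the other 3, the marker with the highest and the one with the lowest level before culture of each marker list, and the 5 genes most like the members. Others are named after their values were seen. A gene that this rule names is not reported here. The members and lists were chosen with earlier results of these data known. All 16 pairs of samples within a group differed by more than counting noise, so none was counted as a duplicate.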

Additional observations from a re-analysis of the deposited data

Results flagged for a closer look

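In 14 of 146 sets of 4 or 5 samples examined, 1 sample lay far from the others, where chance gives about 5%. Of these, 10 were in replicate 4 before culture. Among members and their ratios, H2-DMb2 had 539.8 normalized counts in replicate 4 after culture (438 to 455 in the other 3) and Ciita 1892 (1391 to 1421). The ratio of H2-Ab1 to H2-Aa was 0.619 in replicate 4 before culture (0.928 to 1.02 in the other 4). The ratio of H2-Aa to H2-DMa was 14.2 there (12.1 to 12.6), and 17.9 in replicate 2 after culture (22.3 to 23.2). In replicate 4 before culture Creb1 was high at 2477.5 (2219 to 2290). Socs1 was low there at 902 (1282 to 1322), Spi1 at 7179.7 (9547 to 10397), Ctsh at 3556 (4826 to 5257) and Ctsz at 7215 (10768 to 11948). So were the class I pathway genes H2-D1 at 21424.5 (29214 to 31933), Tapbp at 11136 (12313 to 12757) and Psmb10 at 994 (1212 to 1283). Prdm1 was low in replicate 1 before culture at 951 (1036 to 1059).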

How the results depend on the processing

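In all 210 values of the 10 members under other settings, direction and call were the same, and the median of the members lay between −3.05 and −2.88. Of 1133 values of the 54 pathway genes 1094 kept their call. Upper quartile scaling moved the median of all tested genes from 0.01 to 0.12, and with it Irf1, Tap2, H2-K1, Ctsh and Lgmn passed and Spi1 did not (limma adjusted p = 0.0726). Genes passing numbered 9925 (mean of at least 50) to 14150 (no filter). The replicate numbers in the titles were checked for pairing: deviations of same-numbered samples correlated at 0.08, 0.08, −0.21 and −0.04, and 2 of 4 had their own number as best partner. By the numbers in the library names, which make replicate 4 before and replicate 3 after culture a pair, they correlated at 0.08, 0.25, 0.35 and 0.04, and 3 of 4 had their own number as best partner. Neither numbering gave over 0.1 in every pair, the rule used here, so samples were treated as unpaired. A pairing by library number is not excluded by this. All 10 members passed with either replicate block. With the title numbers 11646 genes passed, and Rfx5, Jak1, Spi1 and Psme1 did not (limma adjusted p = 0.0689, 0.0603, 0.0715 and 0.0824). With the library numbers 12836 did, Ctsh and Lgmn among them (limma adjusted p = 0.00846 and 7.37e-06). The ratios were not tested with a block by library number. They kept their direction under the block by title number, but 4 pairs cannot give a p under 0.125. Their mean log2 differences were −1.74 for H2-Ab1 to H2-Aa, −1.01 for H2-Eb1 to H2-Aa, 0.25 for H2-DMb1 to H2-DMa, 1.14 for H2-Ob to H2-Oa and 0.75 for H2-Aa to H2-DMa (exact sign-flip test, adjusted p = 0.167 each). With 1 sample left out, these 5 ran from −1.90 to −1.70, −1.14 to −0.98, 0.22 to 0.28, 0.84 to 1.29 and 0.72 to 0.85. Each missed the threshold without any 1 sample after culture (exact permutation test, adjusted p = 0.0571), where 5 against 3 samples allow few splits. Cd74 to H2-Aa ran from −0.38 to −0.18 and H2-Aa to Ciita from 0.17 to 0.27, and both passed without replicate 4 before culture (exact permutation test, adjusted p = 0.0327); the cause was not tested.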
